A study of Mus musculus with 12 samples.

Results

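The genes described here encode the constitutive proteasome, the protease that breaks down ubiquitin-tagged proteins in every cell. They were chosen by gene symbol. The rule takes each gene with a probe set of a single symbol that begins with Psma, Psmb, Psmc or Psmd and a number, and leaves out pseudogenes and the 3 interferon-induced subunits Psmb8, Psmb9 and Psmb10. It found 37 genes among the 19935 measured, on 43 probe sets. No measured value enters the rule. The set was nevertheless put forward with its rise in CD70TG against WT already known from these arrays, so that comparison is given as a description and nothing is rested on it.

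Expression was measured in bone marrow cells of male C57BL/6J mice aged 10 to 12 weeks, with 12 arrays, 4 groups and 3 mice in each group. Cells carrying CD71, the transferrin receptor of red cell precursors, were taken out of crushed hind-leg marrow with a biotinylated antibody and magnetic beads. WT mice had neither change, CD70TG mice (clone F13) carried a CD70 transgene, Ifng-/- mice lacked the gene for interferon-gamma, and CD70TG*Ifng-/- mice carried the transgene and lacked Ifng. CD70 is the ligand of the costimulatory receptor CD27 on T cells, and the design asks what chronic CD70 signalling does in these cells with and without interferon-gamma. The labels do not give the promoter that drives the transgene or the part of Ifng that was removed. They name 1 clone for CD70TG and none for CD70TG*Ifng-/-.

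The proteasome has a barrel-shaped core, called 20S, with outer rings of alpha subunits (Psma genes) and inner rings of beta subunits (Psmb genes). Psmb5, Psmb6 and Psmb7 are the beta subunits that cut the substrate. A cap, called 19S, sits on the core: its base holds a ring of ATPases (Psmc genes) that unfold substrates, together with scaffold and ubiquitin-binding subunits, and its lid holds Psmd14, which removes ubiquitin. Under interferon-gamma, cells make Psmb8, Psmb9 and Psmb10, which take the places of Psmb5, Psmb6 and Psmb7 and form the immunoproteasome. Maturing red cells clear much of their protein content, in part through ubiquitin and the proteasome.

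All values are log2 values relative to a gene's own median over the 12 arrays, so a value of 0 is that median and levels of different genes cannot be compared. The rounding of the deposited numbers still showed whether a probe set had been at a log2 level of at least 8 in all arrays before centring. By this measure 32 of the 37 genes were at least 8 (the higher level class), against 14.5% of all genes. Psma8, Psmb5, Psmb11, Psmc3ip and Psmd3 were in the lower class of 4 to 8, which also takes genes with arrays on both sides of 8. Ifng did not check the labels: its probe set read 0.03, -0.09 and 0.17 for WT and -0.16, -0.01 and -0.02 for Ifng-/-, in the lower level class, and the groups overlapped. Cd70 was above WT in all 3 CD70TG arrays, by 0.26 ± 0.12 (SE, n = 3 per group), and did not pass the test (limma, adjusted p = 0.18). Red cell markers, 13 genes all in the higher level class, had medians per array of -0.06 to -0.04 in WT and -0.16 to 0.08 in CD70TG, and 2 of the 13 fell in CD70TG against WT. Markers of macrophages, which surround red cell precursors in marrow, differed far more: all 15 fell in CD70TG against WT, with per-array medians of 0.71 to 1.48 in WT, -1.05 to -0.72 in CD70TG, 1.18 to 1.67 in Ifng-/- and -1.49 to -1.37 in CD70TG*Ifng-/-. Of 9 B cell markers 8 fell in CD70TG against WT, with per-array medians of 0.14 to 0.52 in WT and -0.50 to -0.36 in CD70TG. The 11 neutrophil markers had medians of 0.87 to 1.15 in WT and -0.45 to -0.02 in CD70TG, and reached 1.96 in the Ifng-/- array of mouse 1. In CD70TG against WT 3 of the 11 passed as lower (Cxcr2, Retnlg and S100a9) and 1 as higher. This was Prtn3, a granule protein of early myeloid cells, with a difference of 1.08 ± 0.28 (adjusted p = 0.0265). The granule genes Mpo (1.09 ± 0.34, adjusted p = 0.0524) and Elane (0.81 ± 0.33, adjusted p = 0.136) were the other 2 above 0 and did not pass. Of 12 T and NK cell markers 2 passed as lower and 0 as higher, with a median difference of -0.09. Of 5 megakaryocyte markers 0 passed in either direction, with a median difference of -0.09. The part of these cells in the results below was not tested. In such mixed samples fewer cells of a type and less RNA per cell cannot be told apart.

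With Ifng intact, proteasome genes were higher in mice with the transgene. In CD70TG against WT, 22 of the 37 genes passed the test as higher (limma, Benjamini-Hochberg adjusted p under 0.05 over all 19935 genes), 0 passed as lower and 15 did not pass. Among all genes tested, 8.23% passed as higher and 2.7% as lower, and among genes of the higher level class 22.2% passed as higher. The median difference of the 37 was 0.32 on the log2 scale, against -0.02 over all genes and 0.19 over genes of the higher class. All 3 CD70TG arrays lay above all 3 WT arrays in 31 of the 37 genes, while this held in 17.6% of all genes and 43% of the higher class. The groups overlapped in Psma8, Psmb11, Psmd4, Psmd5, Psmd8 and Psmd11. At an unadjusted p under 0.05 the test passed 31 of the 37, against 26.3% of all genes and 53% of the higher class. The differences of 35 were above 0, as were those of 44.0% of all genes and 80.1% of the higher class.

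**Figure D1:**
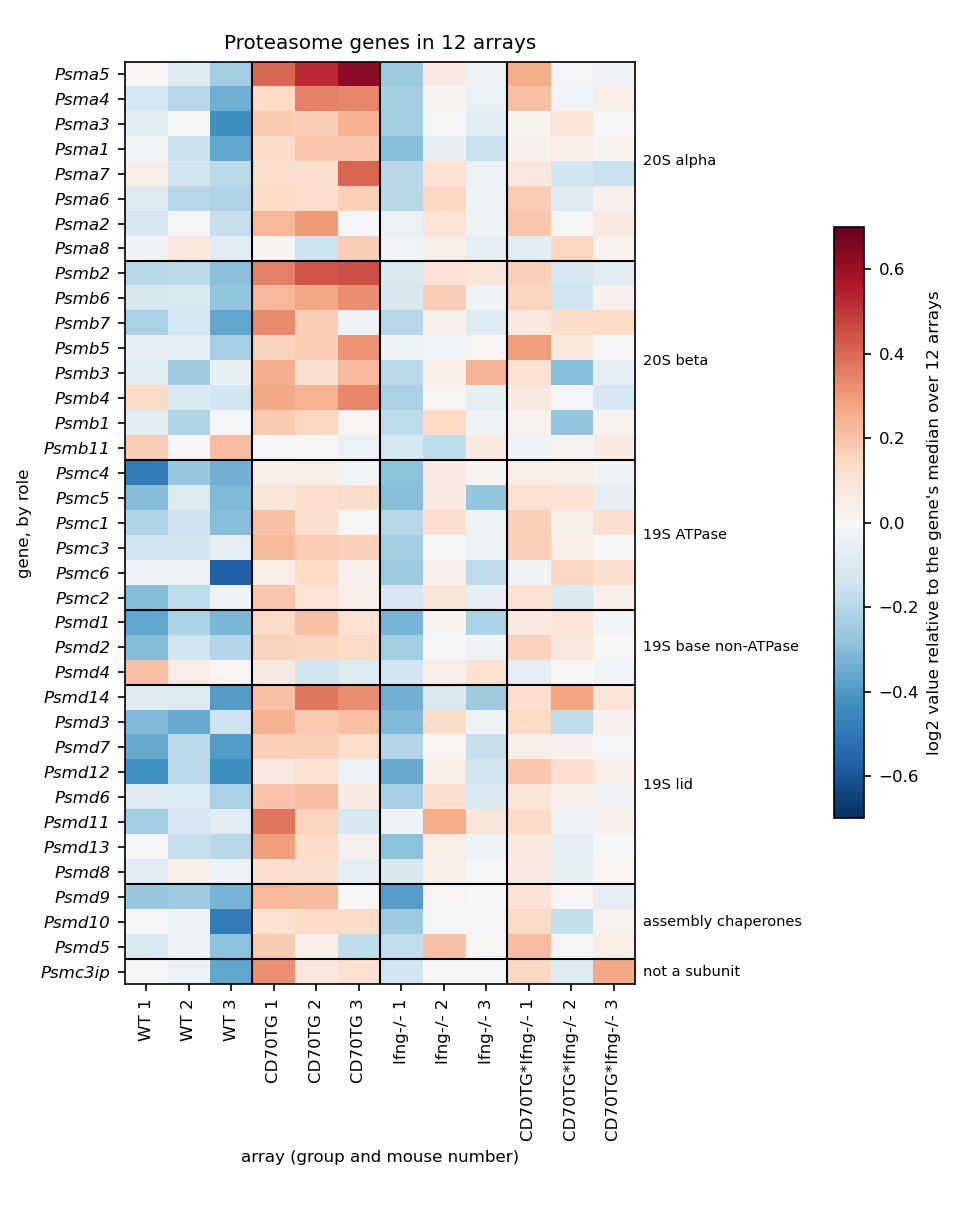
Each row is 1 of the 37 proteasome genes, grouped by role, and each column 1 of the 12 arrays; colour gives the log2 value relative to the gene's median over the arrays (red above, blue below). The CD70TG columns are above the median in 27 to 36 of the 37 genes and the WT columns in 2 to 5, and Psmd4 and Psmb11 run against the rest.

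The promoters of 4 genes are shown to set Psma5, Psmd1 and Psmd2, which rose in CD70TG, beside Psmd4, which with Psmb11 was alone in having a lower mean there. The sequences are the 250 bases before the transcription start in RefSeq (GRCm38.p6), written along the gene's strand. Capitals mark matches to the motifs described after them. Psma5 lies at chr3:108256676-108256925 on the plus strand, Psmd1 at chr1:86064369-86064618 on the plus strand, Psmd2 at chr16:20651402-20651651 on the plus strand, and Psmd4 at chr3:95042615-95042864 on the minus strand.
Psma5: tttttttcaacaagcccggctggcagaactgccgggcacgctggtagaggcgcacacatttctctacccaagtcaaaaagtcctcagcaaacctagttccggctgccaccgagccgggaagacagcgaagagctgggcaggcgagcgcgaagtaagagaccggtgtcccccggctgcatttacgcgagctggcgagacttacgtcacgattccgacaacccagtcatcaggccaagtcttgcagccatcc
Psmd1: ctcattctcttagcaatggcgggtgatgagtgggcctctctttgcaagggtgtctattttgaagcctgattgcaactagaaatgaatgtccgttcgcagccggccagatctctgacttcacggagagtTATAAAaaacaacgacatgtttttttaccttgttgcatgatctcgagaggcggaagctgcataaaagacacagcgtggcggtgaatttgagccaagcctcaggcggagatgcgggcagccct
Psmd2: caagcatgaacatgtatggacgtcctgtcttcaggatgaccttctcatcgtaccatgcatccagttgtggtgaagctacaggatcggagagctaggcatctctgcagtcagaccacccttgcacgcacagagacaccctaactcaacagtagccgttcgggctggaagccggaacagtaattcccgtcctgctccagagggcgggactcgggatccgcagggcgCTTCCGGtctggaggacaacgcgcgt
Psmd4: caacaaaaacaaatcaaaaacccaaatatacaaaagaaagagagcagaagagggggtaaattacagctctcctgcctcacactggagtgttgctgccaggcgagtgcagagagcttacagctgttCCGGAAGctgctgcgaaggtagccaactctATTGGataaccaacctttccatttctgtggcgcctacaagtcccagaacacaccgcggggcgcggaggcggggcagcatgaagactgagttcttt

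A search for 4 motifs covered both strands of windows of 300 bases, from 250 before to 50 after the start. They were the antioxidant response element TGACNNNGC, bound by the Nrf factors that control proteasome genes, the CCAAT box bound by NF-Y, the ETS motif CCGGAAG, and the TATA box TATAAA. None of the 4 contains another. No RefSeq window was matched to Psma8, Psmb1, Psmb2, Psmb7, Psmc3, Psmd3 and Psmd7. Of these, Psmb2, Psmb7, Psmc3, Psmd3 and Psmd7 rose in CD70TG against WT, Psmb2 by the most of all the genes. Windows were matched to the other 30 of the 37 genes, 32 windows in all. The ETS motif was in 37.5% of these windows, against 8.86% of all windows and 21.1% of those of genes of the higher level class. CCAAT was in 40.6% (37.4% of all and 40.9% of the higher class), the antioxidant element in 15.6% (12.4% and 16.3%) and TATAAA in 9.38% (13.6% and 6.88%). Of the matched genes, 17 rose in CD70TG against WT and 13 did not pass. The ETS motif was in 5 of the 17 and 6 of the 13, CCAAT in 5 and 8, and TATAAA in 3 and 0. The antioxidant element was in 4 of the 17 (Psmb5, Psmb6, Psmd9 and Psmd12) and in 1 of the 13 (Psmc6). In the printed stretches, Psmd1 holds TATAAA starting 122 bases before the start, Psmd2 an ETS match on the minus strand 26 bases before it, and Psmd4 an ETS match 125 and a CCAAT match on the minus strand 95 bases before it. Psma5 holds none of the 4. A match is a description of these letters and not a shown binding site.

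Of the 8 alpha subunit genes of the core, 5 rose in CD70TG against WT, with a median of 0.33 over the 8. Psma5 had the widest spread over the arrays of all 37 genes. Psma5 read 0.01, -0.10 and -0.24 for WT, 0.40, 0.52 and 0.63 for CD70TG, -0.26, 0.06 and -0.04 for Ifng-/-, and 0.26, -0.01 and -0.04 for CD70TG*Ifng-/-. Every CD70TG array was above every other array, by 0.62 ± 0.11 over WT (SE, n = 3 per group, 1.54-fold, adjusted p = 0.00289). Its 2 probe sets gave 0.65 and 0.60. The promoter printed above for Psma5 holds no match. The windows of Psma4, Psmc4 and Psmc5, which rose, and of Psmd5 and Psmd8, which did not pass, held none either. Psma4 read -0.12, -0.20 and -0.34 for WT and 0.14, 0.36 and 0.34 for CD70TG, groups that did not overlap (0.50 ± 0.09, adjusted p = 0.00514). In Psma3, whose 3 probe sets gave 0.37, 0.37 and 0.38, the rise was 0.37 ± 0.10 (adjusted p = 0.0289). Psma1 (0.35) and Psma6 (0.31) also rose. Psma7 was 0.31 ± 0.11 above WT and Psma2 0.27 ± 0.09, and neither passed (adjusted p = 0.0733 and 0.0654). Psma8, an alpha subunit made in testis, was the lowest of the role at 0.02 ± 0.09.

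Of the 8 beta subunit genes 5 rose, and 1 of them changed more than any other gene of the 37. Psmb2, a beta subunit that does not cut, read -0.20, -0.19 and -0.30 for WT, 0.35, 0.44 and 0.45 for CD70TG, -0.10, 0.10 and 0.09 for Ifng-/-, and 0.16, -0.11 and -0.09 for CD70TG*Ifng-/-. The 3 CD70TG arrays stood above the other 9 and the 3 WT arrays below them. The difference from WT was 0.64 ± 0.09 (SE, n = 3 per group, 1.56-fold, adjusted p = 0.000579). Psmb6, a cutting subunit, read -0.11, -0.11 and -0.27 for WT and 0.23, 0.27 and 0.32 for CD70TG, 0.44 ± 0.09 apart (adjusted p = 0.00955). The other cutting subunits rose as well: Psmb7 by 0.39 ± 0.10 (adjusted p = 0.0209) and Psmb5 by 0.33 ± 0.09 (adjusted p = 0.027). Psmb4 rose by 0.32 ± 0.09 (adjusted p = 0.036). Psmb3 (0.33 ± 0.12) and Psmb1 (0.21 ± 0.10) did not pass, with adjusted p = 0.0844 and 0.199. Psmb11, the beta subunit of the thymus, had the lowest difference of the role, -0.15 ± 0.08 (adjusted p = 0.271).

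**Figure D2:**
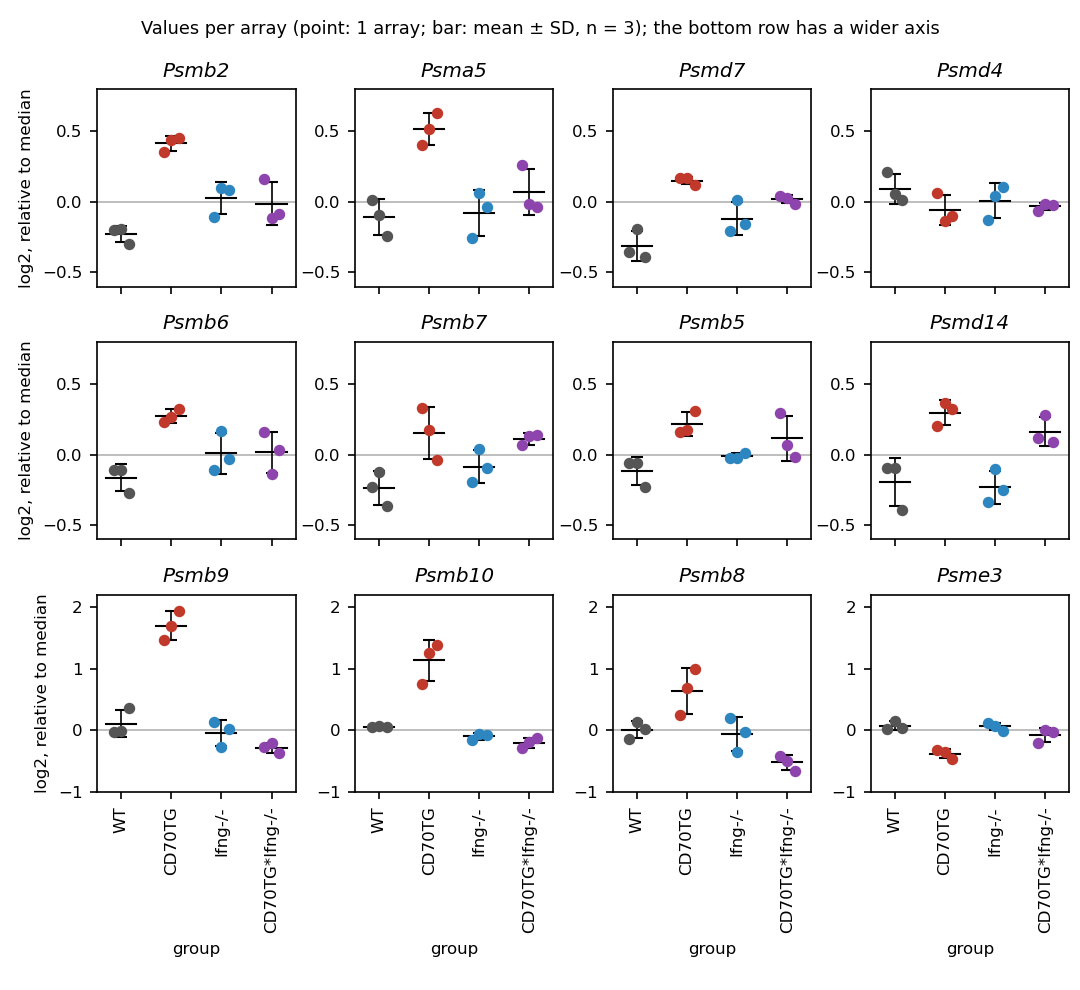
Points are single arrays of 12 genes by group, as log2 values relative to the gene's median, and bars are the mean ± SD of 3 mice; the bottom row, with the immunoproteasome genes Psmb8, Psmb9 and Psmb10 and the activator Psme3, has a wider axis. Psmb2 and Psma5 are highest in CD70TG with no overlap, Psmd14 is also higher in CD70TG*Ifng-/- than in Ifng-/-, and Psmd4 overlaps between CD70TG and WT.

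The 6 ATPases of the base moved within a narrow range, 0.28 to 0.39 above WT, and CD70TG lay above WT in every array for each of them. Psmc4, the highest, read -0.49, -0.27 and -0.34 for WT and 0.04, 0.05 and -0.02 for CD70TG (0.39 ± 0.09, adjusted p = 0.017). Psmc5 (0.35), Psmc1 (0.32) and Psmc3 (0.30) also rose. Psmc6 (0.29 ± 0.13) and Psmc2 (0.28 ± 0.09) did not pass (adjusted p = 0.162 and 0.0548). Psmc6 had the widest spread within WT of all 37 genes, with a value of -0.57 in the array of mouse 3.

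Of the other base subunits, the scaffolds Psmd1 and Psmd2 rose and the ubiquitin receptor Psmd4 did not. Psmd1 read -0.36, -0.22 and -0.32 for WT, 0.14, 0.20 and 0.11 for CD70TG, -0.33, 0.02 and -0.22 for Ifng-/-, and 0.06, 0.09 and -0.02 for CD70TG*Ifng-/-. CD70TG exceeded WT by 0.45 ± 0.09 (adjusted p = 0.00575) with no overlap of arrays. Psmd2 rose by 0.36 ± 0.08 (adjusted p = 0.0115). Psmd4 read 0.21, 0.05 and 0.01 for WT, 0.06, -0.14 and -0.10 for CD70TG, -0.13, 0.04 and 0.11 for Ifng-/-, and -0.06, -0.01 and -0.02 for CD70TG*Ifng-/-. The CD70TG and WT arrays overlapped, all 3 CD70TG*Ifng-/- arrays were below all 3 WT arrays, and CD70TG minus WT was -0.15 ± 0.08 (adjusted p = 0.283). Its promoter, printed above, holds an ETS and a CCAAT match.

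Of the 8 lid genes 5 rose. Psmd14, the deubiquitinase of the lid, read -0.09, -0.10 and -0.39 for WT, 0.20, 0.37 and 0.32 for CD70TG, -0.34, -0.10 and -0.25 for Ifng-/-, and 0.12, 0.28 and 0.09 for CD70TG*Ifng-/-. All 6 arrays with the transgene were above all 6 without it, and CD70TG exceeded WT by 0.49 ± 0.10 (adjusted p = 0.00619). Psmd7, which forms a dimer with Psmd14, read -0.35, -0.19 and -0.39 for WT and 0.17, 0.17 and 0.12 for CD70TG (0.46 ± 0.08, adjusted p = 0.00248). The CD70TG arrays of Psmd7 were close together and well apart from WT. Psmd3, in the lower level class, rose by 0.49 ± 0.11 (adjusted p = 0.013), Psmd12 by 0.39 ± 0.10 (adjusted p = 0.0271) and Psmd6 by 0.30 ± 0.09 (adjusted p = 0.0484). Psmd11, Psmd13 and Psmd8 did not pass. Psmd8 had the narrowest spread of the 37 genes over all 12 arrays, from -0.11 to 0.12, and its difference was 0.08 ± 0.08.

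Symbols that match the rule without naming a stable subunit were few. Psmd9, Psmd10 and Psmd5 are chaperones that help to assemble the base, and 1 of the 3 rose: Psmd9, by 0.43 ± 0.10 (adjusted p = 0.0181). Psmd10 (0.30 ± 0.12, adjusted p = 0.133) and Psmd5 (0.16 ± 0.11, adjusted p = 0.393) did not pass. Psmc3ip, a cofactor of meiotic recombination named after a partner, is no subunit and did not pass (0.31 ± 0.11, adjusted p = 0.0954). Without these 4 and the tissue-specific Psma8 and Psmb11, 21 of 31 genes rose.

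**Figure D3:**
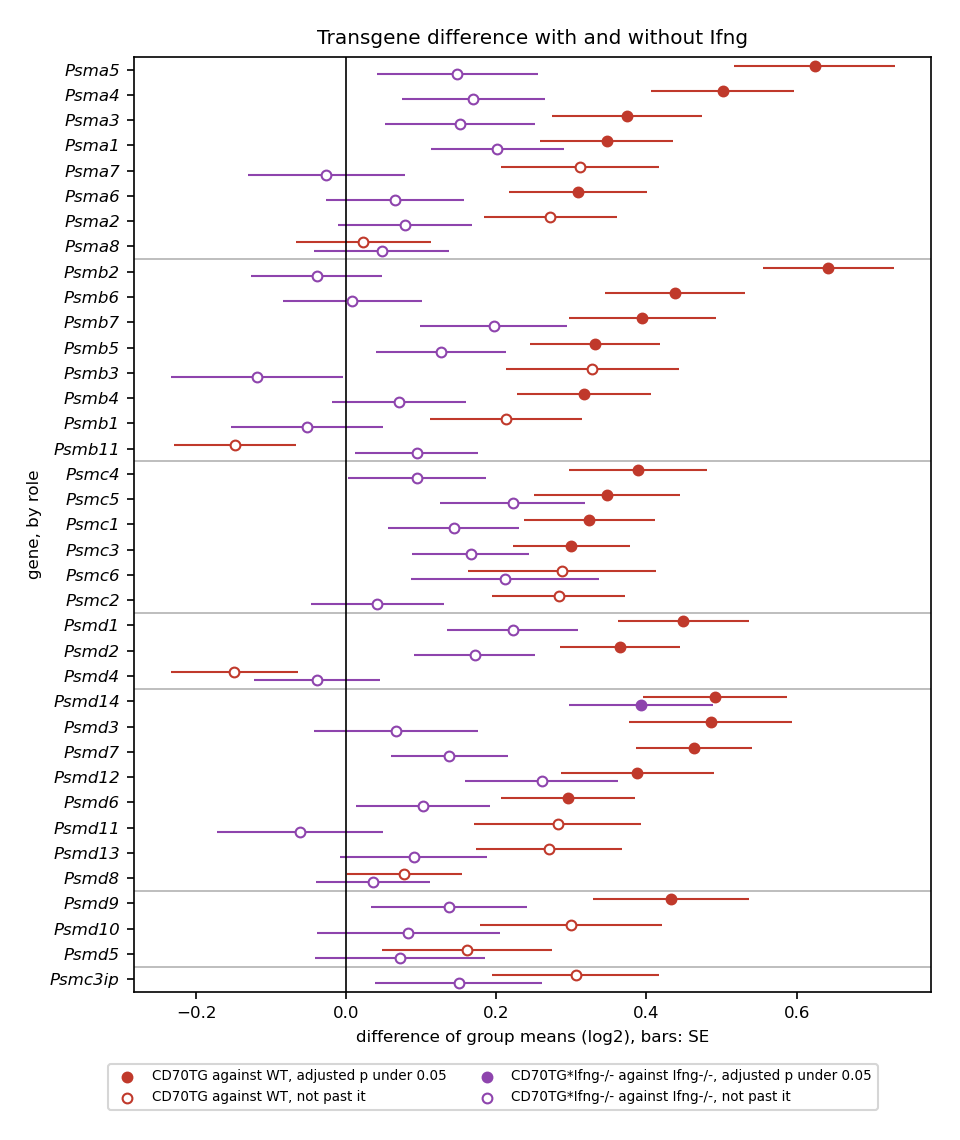
Differences of group means (log2, horizontal axis, bars SE, n = 3 per group) for each gene by role, for the transgene with Ifng (CD70TG against WT, red) and without it (CD70TG*Ifng-/- against Ifng-/-, purple); filled points passed an adjusted p under 0.05. Filled red points number 22 and filled purple points 1, Psmd14.

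Genes of the higher level class as a whole were higher in CD70TG, and the count of proteasome genes changed with how this was treated. Over the 2861 other genes of the higher class, per-array medians were -0.14, -0.06 and -0.11 for WT and 0.14, 0.08 and -0.04 for CD70TG. The medians of the 37 proteasome genes were -0.09, -0.12 and -0.24 for WT, 0.18, 0.15 and 0.12 for CD70TG, -0.21, 0.04 and -0.03 for Ifng-/-, and 0.10, 0.01 and 0.02 for CD70TG*Ifng-/-. Proteasome medians of CD70TG and WT did not overlap. Taken relative to the other genes of the class they were 0.05, -0.07 and -0.13 for WT and 0.04, 0.07 and 0.16 for CD70TG, and overlapped by the first array of each group. With each array centred within the level classes, 7 of the 37 genes remained higher (5.8% of all genes) and Psmd4 passed as lower, by 0.32 ± 0.08 (adjusted p = 0.0345, with 3.1% of all genes lower). The 7 were Psma4, Psma5, Psmb2, Psmd1 and Psmd7 with differences of 0.28 to 0.48, and Psmb5 (0.35) and Psmd3 (0.51) of the lower class. After quantile normalization 12 passed as higher (5.04% of all genes). Without 1 of the 12 arrays 8 to 23 passed: 9 without WT mouse 1, 12 without WT mouse 3, 8 without CD70TG mouse 1 and 9 without CD70TG mouse 2. The count over all genes fell too, from 1640 higher genes to 511, 962, 595 and 672 without these 4 arrays in the same order. Psma4, Psma5, Psmb2, Psmd1 and Psmd7 passed in all 21 alternative settings, these 5 with Psmb6 and Psmd14 passed without each array in turn, and none of the 22 changed sign in any.

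**Figure D4:**
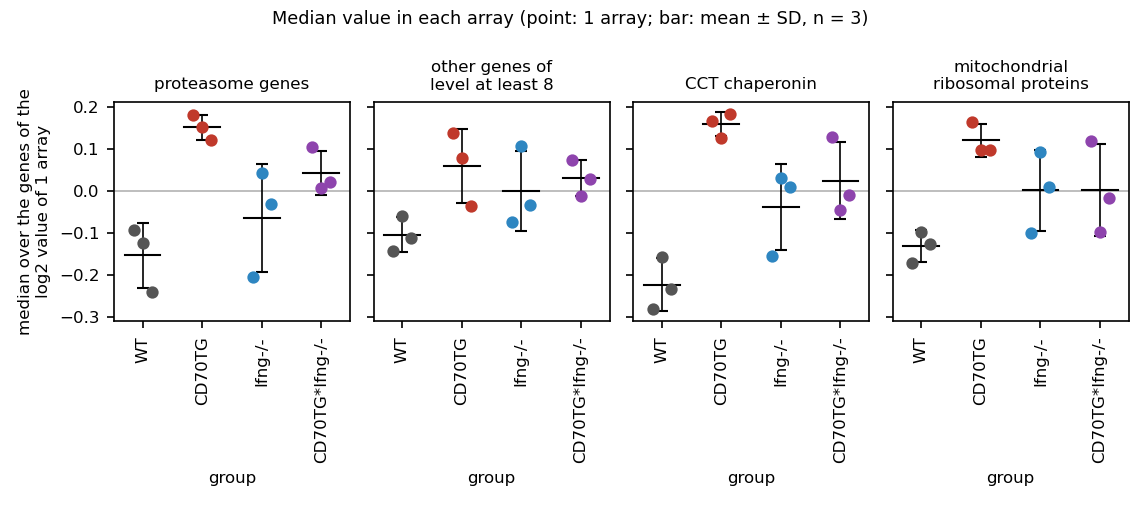
Points are the medians, per array, of the log2 values of 4 gene sets, with the mean ± SD of 3 mice as bars: proteasome genes (37), other genes of level at least 8 (2861), CCT chaperonin (10) and mitochondrial ribosomal proteins (77). In all 4 panels the CD70TG points lie above all WT points, by the smallest gap for the other genes of level at least 8.

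Other housekeeping complexes also had medians above 0 in the same comparison. Of 10 genes of the CCT chaperonin, which folds actin and tubulin, 7 rose, with a median of 0.37. Of 77 mitochondrial ribosomal protein genes 26 rose, with a median of 0.27. The proteasome genes stood between them at 22 of 37 and 0.32, but the sets differ in level class. The higher class held 8 of the 10 CCT genes, 13 of the 77 mitochondrial ribosomal protein genes and 32 of the 37 proteasome genes. Of all genes 8.23% passed as higher, with 22.2% in the higher class and 5.85% in the lower. No difference between these sets was tested.

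Without Ifng few proteasome genes passed the test for the transgene. The 6 arrays compared here are in neither group mean of CD70TG against WT, but all 12 arrays enter 1 estimate of the spread. In CD70TG*Ifng-/- against Ifng-/-, 1 of the 37 passed as higher (0.156% of all genes did) and 0 as lower (2.35%). The gene was Psmd14, 0.39 ± 0.10 higher (1.31-fold, adjusted p = 0.0453), and this call was lost in 13 of 21 alternative settings, among them leaving out any array other than WT mouse 3 or Ifng-/- mouse 2. At an unadjusted p under 0.05, 5 of the 37 passed (13.5%), a share close to the 12.1% of all genes and below the 16.2% of the higher class. The median difference of the 37 was 0.09, against 0.04 over all genes and 0.04 over those of the higher class. The differences of 31 were above 0, as were those of 63.65% of all genes and 61.1% of the higher class. The arrays were set apart upward in 6 genes, with 9.32% of all genes and 9.44% of the higher class set apart in that direction. After Psmd14 came the lid subunit Psmd12 at 0.26 ± 0.10 (adjusted p = 0.295). Psmb2 was at -0.04 ± 0.09 and Psma5 at 0.15 ± 0.11. In this comparison too, all 15 macrophage markers fell, and their part in it was not tested.

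The interaction, which is the transgene difference with Ifng minus that without it, passed for 1 gene as positive, Psmb2, and for none as negative (1.61% and 0.281% of all genes). For Psmb2 it was 0.68 ± 0.12 (adjusted p = 0.0171). The call was lost without CD70TG mouse 2 and without CD70TG*Ifng-/- mouse 2 or mouse 3, with an adjusted p of at most 0.0594. The interaction was above 0 in 34 of the 37 genes, against 71.6% of the higher class and 42.1% of all genes, with a median of 0.21 (0.15 over genes of the higher class, -0.04 over all genes). At an unadjusted p under 0.05 it passed for 10 of the 37, a share between the 20.3% of all genes and the 31.6% of the higher class. It holds the transgene difference with Ifng as a term, so these values are a description and no independent support for that difference. Psma5 (0.48 ± 0.15, adjusted p = 0.114) and Psmb6 (0.43 ± 0.13, adjusted p = 0.101) did not pass. Of the 22 genes that rose with Ifng, the other 21 were not shown to differ between the Ifng genotypes.

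Loss of Ifng was also compared with and without the transgene. Each comparison holds WT or CD70TG, the groups whose difference was known when the set was put forward. The values are therefore a description and no independent support for that difference. In Ifng-/- against WT limma passed 0 of the 37 in either direction (0.00502% of all genes higher and 0% lower). At an unadjusted p under 0.05 it passed 5 of the 37 (13.5%), near the 13.8% of all genes and below the 21.8% of the higher class. The median was 0.10, against 0.11 over genes of the higher class, and Psmc4 had the highest difference, 0.30 ± 0.09 (adjusted p = 0.254). In CD70TG*Ifng-/- against CD70TG 1 gene passed as lower and 0 as higher (0.988% and 0.426% of all genes). It was Psmb2, lower by 0.43 ± 0.09 (1.34-fold, adjusted p = 0.0241), a call lost without CD70TG mouse 2 or 3 and without CD70TG*Ifng-/- mouse 2 or 3. Psma5 had a difference of -0.45 ± 0.11 and did not pass (adjusted p = 0.0608). The median of the 37 was -0.10, against -0.03 over genes of the higher class and 0.02 over all genes. All 3 CD70TG*Ifng-/- arrays lay below all 3 CD70TG arrays in 11 of the 37. This held in 421 of 2893 genes of the higher class and 1648 of all 19935. At an unadjusted p under 0.05, 6 passed (16.2%), against 11.2% of all genes and 19.5% of the higher class.

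In CD70TG*Ifng-/- against WT 3 genes passed as higher and 0 as lower (0.446% and 1.34% of all genes). They were Psmd12 (0.46 ± 0.10, adjusted p = 0.0333), Psmd7 (0.33 ± 0.08, adjusted p = 0.0459) and Psmc4 (0.39 ± 0.09, adjusted p = 0.0477). The count was 0 without WT mouse 1 or 3, CD70TG mouse 2, Ifng-/- mouse 3 or any 1 mouse of CD70TG*Ifng-/-. Psmd12 read -0.42, -0.18 and -0.43 for WT, 0.06, 0.11 and -0.04 for CD70TG, -0.35, 0.05 and -0.13 for Ifng-/-, and 0.19, 0.12 and 0.04 for CD70TG*Ifng-/-. Neither set of arrays with the transgene overlapped WT for Psmd12, and Ifng-/- spanned from the WT values to those of CD70TG. The median of the 37 was 0.21, with 0.16 over genes of the higher class. At an unadjusted p under 0.05, 19 passed (51.4%), against 16.1% of all genes and 38.5% of the higher class. The comparisons with WT share the WT arrays, and those with CD70TG or CD70TG*Ifng-/- share these, so they are not independent of each other. WT is also a group of the difference known beforehand, so the values against WT are a description.

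Across the 4 groups the order of the means was most often WT, Ifng-/-, CD70TG*Ifng-/-, CD70TG, from low to high, in 22 of the 37 genes. WT had the lowest mean in 31 genes and CD70TG the highest in 30. These counts hold the known difference of CD70TG from WT, so they are a description and no independent support for it. The order was not counted in other genes. Per-array medians of the 2861 other genes of the higher class averaged -0.10 in WT, 0.0008 in Ifng-/-, 0.03 in CD70TG*Ifng-/- and 0.06 in CD70TG, the same order. Spread within groups was uneven. Among the 3 Ifng-/- arrays, that of mouse 1 was the lowest in 35 of the 37 genes and that of mouse 2 the highest in 31, and the first of these is the array with the high neutrophil markers. The median SD over the genes was 0.14 in Ifng-/-, 0.11 in WT, 0.09 in CD70TG*Ifng-/- and 0.08 in CD70TG. In WT, the array of mouse 3 was the lowest of all 12 in 18 genes. Between neighbours in this order the test passed 0 genes for Ifng-/- against WT, 1 for CD70TG*Ifng-/- against Ifng-/- and 1 for CD70TG*Ifng-/- against CD70TG.

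The cutting subunits were set against the interferon-induced subunits that replace them. Psmb9 minus Psmb6 was 0.09, 0.09 and 0.64 for WT, 1.23, 1.42 and 1.61 for CD70TG, 0.24, -0.45 and 0.05 for Ifng-/-, and -0.43, -0.07 and -0.40 for CD70TG*Ifng-/-, each on the log2 scale relative to the genes' medians. The CD70TG arrays stood above all others, with a mean of 1.42 ± 0.19 (SD, n = 3) against 0.27 ± 0.32 in WT. Psmb10 minus Psmb7 had means of 0.98 ± 0.51 in CD70TG and 0.30 ± 0.12 in WT (SD, n = 3), and the arrays overlapped. For Psmb8 minus Psmb5 the means were 0.42 ± 0.31 and 0.12 ± 0.18, also with overlap. In CD70TG*Ifng-/- all 3 differences were below 0 in every array. Psmb9 rose by 1.59 ± 0.13 (adjusted p = 1.4e-05), Psmb10 by 1.07 ± 0.12 and Psmb8 by 0.63 ± 0.17 in CD70TG against WT. In CD70TG*Ifng-/- against CD70TG they fell by 1.98, 1.33 and 1.16. In each cutting pair, both partners were higher in CD70TG than in WT, and only the induced partner passed as lower in CD70TG*Ifng-/- against CD70TG; the difference between partners was not tested.

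Other genes of the pathway were taken from a list of 32 measured genes around the proteasome. In CD70TG against WT 9 rose (28.1%), 1 fell and 22 did not pass, with a median of 0.21. Of the 32, 20 were in the higher level class, where 22.2% of genes passed as higher with a median of 0.19. Over all genes 8.23% passed as higher and 2.7% as lower, and the median was -0.02. Of the 5 activators and inhibitors, the interferon-induced activator subunits Psme1 (0.84 ± 0.10, adjusted p = 0.000181) and Psme2 (0.54 ± 0.12, adjusted p = 0.0099) rose. Psme3, the nuclear activator of the same family, fell by 0.45 ± 0.08 (adjusted p = 0.00327): it read 0.02, 0.16 and 0.04 for WT and -0.31, -0.36 and -0.46 for CD70TG, with no overlap. Psme4 (-0.09 ± 0.10) and the inhibitor Psmf1 (-0.03 ± 0.09) did not pass. Of 5 core assembly factors 3 rose: Psmg1 (0.61), Pomp (0.55), which matures the core, and Psmg2 (0.40). The cap deubiquitinase Uchl5 (0.56), the ubiquitin shuttle Rad23b (0.39), the segregase cofactor Nploc4 (0.32) and Nfya (0.30), a subunit of NF-Y, rose too. Nfe2l1, which encodes the Nrf factor that drives proteasome genes when the protease is short, did not pass (0.16 ± 0.08, adjusted p = 0.207).

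For the same list without Ifng, 0 of the 32 genes rose and 1 fell (0.156% and 2.35% of all genes). The gene that fell was the small cap subunit gene Sem1 (-0.31 ± 0.07, adjusted p = 0.0402). The interaction passed as positive for 4 of the 32 genes and as negative for 0 (1.61% and 0.281% of all genes). These 4 were Psme1 (1.13 ± 0.14), Stat3 (0.95 ± 0.22), Psme2 (0.84 ± 0.16) and Pomp (0.66 ± 0.15), with adjusted p of 0.00208, 0.0435, 0.0237 and 0.0403. Pomp read -0.39, -0.16 and -0.41 for WT, 0.09, 0.37 and 0.23 for CD70TG, 0.09, 0.08 and -0.08 for Ifng-/-, and 0.11, -0.21 and -0.16 for CD70TG*Ifng-/-. As in Psmb2, the CD70TG arrays of Pomp were above all WT arrays and the 2 groups without Ifng overlapped each other.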

How the data were processed

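The 12 arrays were 1-colour whole-transcript Affymetrix arrays of total RNA. The deposited log2 values were made by the authors with RMA, per the submitters' processing notes. The version of RMA was not given in the sources used here. Each of the 28815 deposited probe sets has a median of 0 over the arrays, so levels are not held; the log base is taken from RMA. Gene names came from GEO's platform annotation (21780 probe sets with 1 symbol, 1605 with several, 5430 with none), and 21689 were matched by Entrez identifier. Probe sets of a gene were averaged, and near-identical gene copies can share probes. The level class rests on the rounding step of single-precision numbers (tolerance 0.05 of a step; values under 0.001 or over 1 left out). A gene is in the higher class if all used values of any of its probe sets lie on the coarser step.

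Group means were fitted to all 12 arrays with limma 3.58.1 (lmFit, eBayes, 8 residual and 6.23 prior degrees of freedom; statmod 1.5.0, R 4.3.3), two-sided, with Benjamini-Hochberg adjustment over 19935 genes and a threshold of 0.05. The fit was tested on simulated data with independent noise for each gene. The simulation held no shift shared by the genes of an array or level class, so it does not cover such shifts. Each array is a separate mouse per the labels, and the number of arrays limits the precision.

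The genes and lists were chosen with earlier results of these data known. Genes named are the cutting subunits and their induced partners, symbols that are no core subunit, the 10 largest called changes of CD70TG against WT and 5 of each other comparison per direction, the highest and lowest per role, the widest and narrowest spread, and called genes of the pathway list; others were named after their values were seen. Adrm1 is not analysed here. The alternatives were other scalings, first probe set, robust fit, array weights, a replicate block, the higher level class alone, only the groups compared, and leaving out each array.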

Additional observations from a re-analysis of the deposited data

Results flagged for a closer look

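Psmb2 stood out because its transgene differences with and without Ifng differed by a test of the difference itself. This value holds the difference from WT that is the largest of the 37 genes, so it is a description and no independent support. The interaction in log2 units was 0.68 ± 0.12 (SE, limma, 3 mice per group, adjusted p = 0.0171). The transgene difference was 0.64 with Ifng, where all 3 CD70TG arrays were above all 3 WT arrays, and -0.04 without it, where the groups overlapped. The interaction kept its direction in 20 alternatives, between 0.55 and 0.77, and passed in 17 of them. It was lost without CD70TG mouse 2, CD70TG*Ifng-/- mouse 2 or CD70TG*Ifng-/- mouse 3.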

How the results depend on the processing

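For CD70TG against WT the count of higher genes was 22, and it was 12 after quantile normalization and 7 after centring within the level classes, where 1 gene was lower; the median of 0.32 became 0.16 under that centring. For the same centring the medians were 0.0196 in Ifng-/- against WT, 0.0769 in CD70TG*Ifng-/- against WT and 0.0870 for the interaction. For CD70TG*Ifng-/- against Ifng-/- the higher count of 1 became 0 under median centring, level-class centring and a fit of only the groups compared. For CD70TG*Ifng-/- against WT the higher count of 3 became 1 under median centring, 0 under quantile normalization, 0 under level-class centring, 11 with array weights, 7 in the higher level class alone and 6 with only the groups compared. For CD70TG*Ifng-/- against CD70TG the lower count of 1 became 12 with array weights and 2 in the higher level class alone, and for the interaction the count of 1 became 8 with array weights. With array weights the counts over all genes rose too, from 197 to 1789 lower in CD70TG*Ifng-/- against CD70TG, from 321 to 1392 for the interaction and from 89 to 1248 in CD70TG*Ifng-/- against WT. With only the groups compared, 304 of all genes were higher in CD70TG*Ifng-/- against WT. In the higher level class alone, 144 of 2893 genes were higher in that comparison and 80 lower in CD70TG*Ifng-/- against CD70TG. The cause of these changes was not tested. The array weights gave CD70TG mouse 2 and CD70TG*Ifng-/- mouse 3 weights of 4.37 and 4.24 and no other array more than 1.67.

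Leaving out each array in turn gave 8 to 23 higher genes in CD70TG against WT, 0 to 3 in CD70TG*Ifng-/- against Ifng-/-, 0 to 6 in CD70TG*Ifng-/- against WT and 0 to 1 for the interaction, and 0 to 2 lower genes in CD70TG*Ifng-/- against CD70TG. Over all genes these counts ran, in the same order, from 511 to 2017, 5 to 124, 7 to 198, 74 to 614 and 105 to 283. No called gene changed its direction under any alternative.

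Mouse numbers were not treated as pairs in the main fit. Deviations of arrays with the same number correlated at a median of -0.07 over 18 pairs (-0.40 to 0.31). The median was 0.05 over 36 pairs with other numbers (-0.52 to 0.53). Deviations from a group's mean cancel within that group, which ties these correlations to each other, so they cannot exclude a pairing. With the number as a replicate block, CD70TG*Ifng-/- against WT had 1 higher gene, CD70TG*Ifng-/- against CD70TG had 0 lower genes, and the count for CD70TG against WT stayed within 1.5 times of the main count.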
